A study of Mus musculus with 9 samples.

Results

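The genes described here are Mef2a, Mef2c and Mef2d, 3 of the 4 Mef2 genes in a deposited table of 45706 genes, taken by their symbols. All 3 were among the 17291 genes that reached a value of 10 or more in at least 3 libraries and were tested. The fourth, Mef2b, was listed at 0 in 8 libraries and at 1 in proliferating replicate 3, so it was not tested. RNA sequencing had been done on satellite cells, the stem cells of skeletal muscle, from wild-type C57Bl6 mice aged 12 to 20 weeks. The cells were taken at 3 stages: freshly isolated from muscle, proliferating for at least 3 days in a DMEM and Ham F-10 medium with 20% FCS and 2.5 ng/ml human FGF-2, and differentiated to myotubes by a further 6 days in DMEM with 2% horse serum. Each stage had 3 libraries, and the submitters state that they are independent samples from different animals. No treatment or altered gene is named for any group, and myotubes in a dish lack the nerve, vessels and load of a muscle fibre.

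MEF2 proteins are transcription factors of the MADS-box family that bind A/T-rich elements in the promoters and enhancers of muscle genes and act together with the myogenic factors MyoD and myogenin. Class IIa histone deacetylases bind them and hold their targets silent, and kinases such as p38 and the calcium/calmodulin-dependent kinases relieve that block or phosphorylate MEF2 itself. In muscle the genes are known for their part in differentiation and in the build-up of the sarcomere, after myoblasts leave the cell cycle.

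The sequence around 1 annotated start of each gene is shown because Mef2 genes are themselves known as targets of MEF2 factors and of the E-box-binding myogenic factors. Each has 250 bases before the start and the first 10 bases of the transcript, from RefSeq on build GRCm38.p6, and the 3 genes matched the promoter table with 1 start each for Mef2a and Mef2d and 3 for Mef2c. Capitals mark a match to the MEF2 consensus in Mef2a and matches to the E-box, CANNTG, in Mef2c.
Mef2a, chr7:67372849-67373108, minus strand: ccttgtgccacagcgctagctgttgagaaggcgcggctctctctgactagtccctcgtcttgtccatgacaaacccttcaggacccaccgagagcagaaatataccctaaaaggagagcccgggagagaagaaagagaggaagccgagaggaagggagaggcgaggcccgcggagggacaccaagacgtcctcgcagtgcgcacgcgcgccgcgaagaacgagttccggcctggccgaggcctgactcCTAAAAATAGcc
Mef2c, chr13:83503784-83504043, plus strand: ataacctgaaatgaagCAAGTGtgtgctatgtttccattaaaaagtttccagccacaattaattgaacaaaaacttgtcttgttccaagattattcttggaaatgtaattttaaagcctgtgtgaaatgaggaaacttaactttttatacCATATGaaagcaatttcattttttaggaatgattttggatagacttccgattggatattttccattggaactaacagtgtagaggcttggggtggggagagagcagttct
Mef2d, chr3:88142122-88142381, plus strand: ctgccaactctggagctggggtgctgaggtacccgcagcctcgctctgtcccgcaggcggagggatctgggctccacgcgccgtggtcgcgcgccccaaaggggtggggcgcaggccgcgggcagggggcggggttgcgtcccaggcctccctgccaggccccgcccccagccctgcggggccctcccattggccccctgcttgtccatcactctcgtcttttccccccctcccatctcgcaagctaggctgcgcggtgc
The search covered both strands of the full windows, from 250 bases before to 50 bases from the start, for the MEF2 consensus, the E-box, the CArG box of serum response factor, the AP-1 site TGANTCA, the MEF3 site TCAGGTT, and the GC box GGGCGG. Counted from the first transcribed base as 1, with -1 just before it, the window of Mef2a held 1 MEF2 consensus, CTAAAAATAG, from -2 to 8, and none of the other motifs. Among 32851 windows of the same length 3.19% held a MEF2 consensus. The first Mef2c window held E-boxes from -234 to -229 and from -100 to -95, and a MEF3 site on the other strand from -248 to -242. E-boxes stood in 72.3% and MEF3 sites in 4.07% of all windows. Mef2d had 2 GC boxes, a motif of 35.7% of windows, and none of the other motifs. Its window was 72% G and C, against 62.3% in Mef2a, 35.7% in the first Mef2c window and a median of 52.7% over all windows. The other Mef2c windows start at chr13:83523406-83523705 and chr13:83573357-83573656. One held a GC box from -10 to -5, and the other an E-box from -245 to -240 and an AP-1 site from -137 to -131. No 2 of these matches overlapped, and they are letter matches, not measured binding. The deposited values are per gene and do not separate the starts, of which the GENCODE annotation lists 7 for Mef2a, 27 for Mef2c and 6 for Mef2d.

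Values are normalized read counts, that is, reads per gene after a scaling between libraries by the authors, rounded to whole numbers. They summed to 20.1 to 26.2 M per freshly isolated, 17.8 to 18.2 M per proliferating and 19.5 to 20.8 M per myotube library. From the spacing of low values, 12 to 19.4 M reads were estimated to stand behind a freshly isolated library, 20.4 to 24.3 M behind a proliferating one and 22 to 22.8 M behind a myotube library. Pax7, which defines satellite cells, lay at 11694 to 15700 in freshly isolated cells, at 2556 to 3330 in proliferating cells and at 1192 to 1645 in myotubes. Of 7 satellite cell markers 1 was called higher and 5 lower from freshly isolated to proliferating cells (37.6% and 35.7% of all genes). From there to myotubes 2 were higher and 4 lower (28.6% and 25.5%). Itga7, called higher at the first step, lay at 5207 to 7948, 7510 to 10311 and 5979 to 7295. Cdh15, called higher at the second, lay at 3787 to 4543, 1720 to 3948 and 4459 to 4865. Chodl, the other called higher there, lay at 9332 to 12358, 0 to 3 and 8 to 13, so its rise was between very low values. The proliferation marker Mki67 lay at 66 to 471, 22495 to 25457 and 7550 to 13203 in the same order, and the embryonic myosin gene Myh3 at 23 to 83, 3055 to 23038 and 296158 to 335321. Summed leukocyte markers (9 genes) lay at 834 to 907 in freshly isolated cells, at 70 to 95 in proliferating cells and at 255 to 265 in myotubes. In freshly isolated cells most of that sum was Cd68 (549 to 629), with Cd79a at 150 to 165, Csf1r at 45 to 111, Cd74 at 22 to 48, the pan-leukocyte marker Ptprc at 0 to 14 and Adgre1 at 0, and in myotubes most was Itgam (213 to 229). Summed endothelial markers (7 genes) lay at 127 to 250, 91 to 126 and 105 to 142, and the members went different ways. Pecam1 lay at 59 to 155, 26 to 41 and 8 to 15, Cdh5 at 17 to 50, 1 to 2 and 0 to 3, and Kdr at 18 to 22, 16 to 52 and 3 to 5. Vwf lay at 21 to 41, 28 to 46 and 85 to 114 and made up most of the myotube sum. Tie1, Emcn and Cldn5 lay at 11 or below in every library. Summed Schwann cell markers (5 genes) lay at 100 to 203, 38 to 50 and 36 to 46. Fibroblast markers (7 genes) lay at 7689 to 9203, nearly all from Col15a1 and Dpt, then at 23 to 40 and 201 to 506. Pdgfra lay at 4 to 9, 13 to 22 and 12 to 17, and Ly6a at 0 to 6, 2 to 6 and 9 to 11. Cxcl14 lay at 63 to 131 and then at 0, Pi16 at 13 to 31, 2 to 9 and 0 to 2, and Lum at 0 to 44 and then at 0 to 1. Of the 5 tested, 1 (Pdgfra) was called higher and 4 lower at the first step (37.6% and 35.7% of all genes). At the second 1 was higher and 1 lower (28.6% and 25.5%). Pericyte or smooth muscle markers (7 genes) summed to 2980 to 4231, 8655 to 20085 and 62656 to 63599, and Acta2 made up most of the sum in each library. The other 6 did not share its course. Cspg4 lay at 371 to 414, 1625 to 2123 and 148 to 177, Abcc9 at 442 to 640, 11 to 60 and 1420 to 1751, and Pdgfrb at 124 to 236, 67 to 226 and 230 to 376. Rgs5 lay at 20 to 100, 4 to 10 and 28 to 76, Kcnj8 at 28 to 72 and then at 0 to 2, and Myh11 at 3 to 16 in every library. Of the 7, 2 were called higher and 3 lower at the first step (37.6% and 35.7% of all genes). At the second 4 were higher and 1 lower (28.6% and 25.5% of all genes). The part of these other cells in the Mef2 values was not tested. In bulk RNA, fewer cells that carry a transcript and less of it per cell cannot be told apart. Libraries that stood apart were freshly isolated replicate 1, where 22.2% of the summed values came from the non-coding gene Gm26917 (10.6% and 11.2% in the other freshly isolated libraries), and proliferating replicate 1, with low values of many muscle genes.

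The 3 genes moved in different ways over the stages. Mef2a rose at both steps, though its second rise did not pass the threshold in 5 of 20 other settings. Mef2c was close to absent in freshly isolated cells and rose mainly at the step to myotubes. Mef2d fell when cells entered culture and showed no further change past the threshold. A gene was called at an adjusted p below 0.05 in limma, with Benjamini-Hochberg adjustment over all 17291 genes. All 3 members were called between freshly isolated and proliferating cells, where 73.3% of all genes were called, and again between freshly isolated cells and myotubes, where 77.6% were. Mef2a and Mef2c were called between proliferating cells and myotubes, where 54.1% of all genes were. Taken by direction, Mef2a and Mef2c were 2 of the 28.6% of genes called higher in myotubes than in proliferating cells and of the 40.2% called higher in myotubes than in freshly isolated cells. At the first step they were among the 37.6% called higher, and Mef2d among the 35.7% called lower. Libraries of the 2 stages did not overlap for any member at the first step, where 74% of genes did not, for 2 members at the second, where 70.9% did not, and for any member over both, where 78.7% did not. A call or a lack of overlap was thus common here, and the sizes of the changes differ more.

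**Figure D1:**
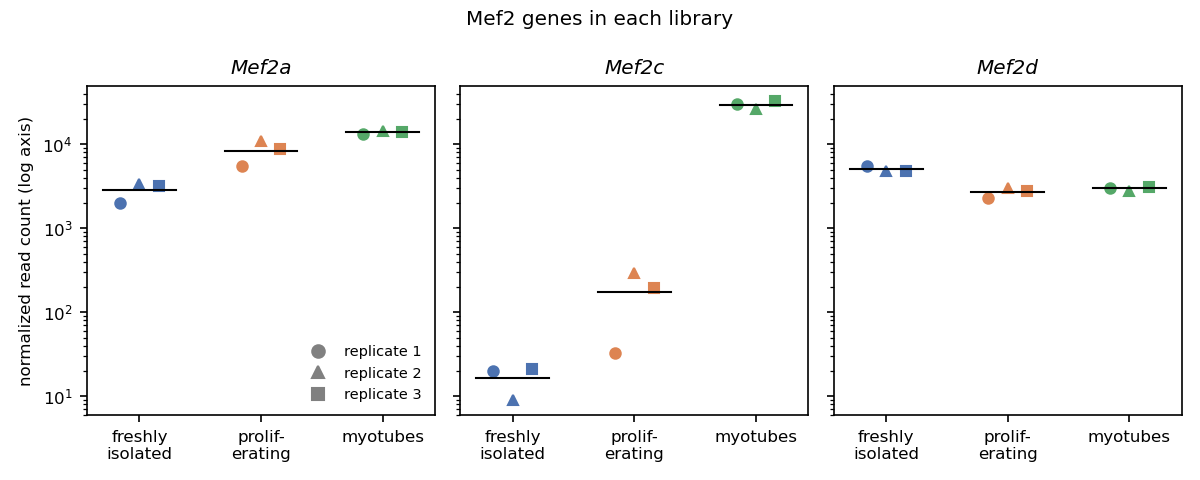
Normalized read counts of Mef2a, Mef2c and Mef2d (log axis) in each of the 9 libraries by stage, with marker shape for the replicate number and a line at the stage mean. Mef2c climbs from 9 to 21 in freshly isolated cells to 26333 to 32818 in myotubes, while Mef2d is highest in freshly isolated cells.

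Mef2a (ENSMUSG00000030557, GRCm38 chromosome 7, 67231163 to 67372858, minus strand) encodes the MEF2 factor known as the main one of the adult heart, also active in regenerating muscle. Its values were 2002, 3332 and 3215 in the freshly isolated libraries. The proliferating libraries had 5546, 10843 and 8749, and the myotube libraries 13125, 14538 and 14163. All proliferating libraries lay above all freshly isolated ones, and all myotube libraries above both. The means were 2849.7 ± 736 (SD, n = 3), 8379 ± 2668 and 13942 ± 732. The rise on entry into culture was 2.9-fold (log2 change 1.54 ± 0.25 SE, adjusted p = 0.000242), and 20.2% of all genes rose more. The rise from proliferating cells to myotubes was 1.73-fold (log2 change 0.79 ± 0.25, adjusted p = 0.0207), and 26.2% of genes rose more. Over both steps Mef2a rose 5.01-fold (log2 change 2.33 ± 0.25, adjusted p = 9.81e-06). The second step was not called without proliferating replicate 1, the lowest of its stage (log2 change 0.52, adjusted p = 0.0708), without myotube replicate 2 (0.76, 0.061) or without myotube replicate 3 (0.77, 0.0585), nor under quantile scaling (0.53, 0.08) or with totals set equal without the 10 most abundant genes (0.54, 0.0984). In freshly isolated replicate 1 Mef2a was the lowest of its stage, as were 41.9% of all genes.

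Mef2c (ENSMUSG00000005583, GRCm38 chromosome 13, 83504034 to 83667080, plus strand) encodes the MEF2 factor that is known to be needed for ordered sarcomeres in skeletal muscle. In freshly isolated libraries its values were 20, 9 and 21, which stood for an estimated 9, 9 and 20 reads. The proliferating libraries had 33, 297 and 196, and the myotube libraries 29906, 26333 and 32818. No library of one stage overlapped another stage, but proliferating replicate 1 lay near the freshly isolated cells and far below the other proliferating libraries. The means were 16.7 ± 6.66 (SD, n = 3), 175 ± 133 and 29686 ± 3248. From proliferating cells to myotubes Mef2c rose 235-fold (log2 change 7.88 ± 0.66, adjusted p = 6.79e-06), and 20 of the 17291 genes (0.116%) rose more. From freshly isolated cells to myotubes it rose 1775-fold (log2 change 10.79 ± 0.66, adjusted p = 1.69e-07), with 19 genes above it (0.11%). The first step, from freshly isolated to proliferating cells, was a 7.56-fold rise (log2 change 2.92 ± 0.66, adjusted p = 0.00247), and 6.82% of genes rose more. Its size turned on single libraries, with log2 changes of 3.86 without proliferating replicate 1 and 2.30 without proliferating replicate 2. The second step was 6.93 and 8.50 without the same libraries. With a pseudocount of 10 the change over both steps was 10.15, because the freshly isolated values are small.

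Mef2d (ENSMUSG00000001419, GRCm38 chromosome 3, 88142372 to 88172086, plus strand) encodes a MEF2 factor found in many tissues, with a muscle isoform made by alternative splicing during differentiation. The values were 5556, 4763 and 4874 in freshly isolated libraries, 2309, 2998 and 2796 in the proliferating libraries and 3017, 2773 and 3139 in the myotube libraries. The freshly isolated libraries lay above all others, and the proliferating and myotube libraries overlapped. The means were 5064 ± 429 (SD, n = 3), 2701 ± 354 and 2976 ± 186. On entry into culture Mef2d dropped to a lower level by 1.88-fold (log2 change -0.91 ± 0.11, adjusted p = 3.64e-05), and 30.9% of genes fell more. Between freshly isolated cells and myotubes the log2 change was -0.77 ± 0.11, a 1.7-fold decrease (adjusted p = 0.000113). Between proliferating cells and myotubes the log2 change was 0.15 ± 0.11 (adjusted p = 0.299), and -0.10 (adjusted p = 0.428) with totals set equal without the 10 most abundant genes. With other scalings the median change over all genes shifted by as much as 0.181 at the first step, 0.222 at the second and 0.0874 over both, so a difference of that size has no fixed sign. Gene-level values cannot show which Mef2d isoform was present.

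**Figure D2:**
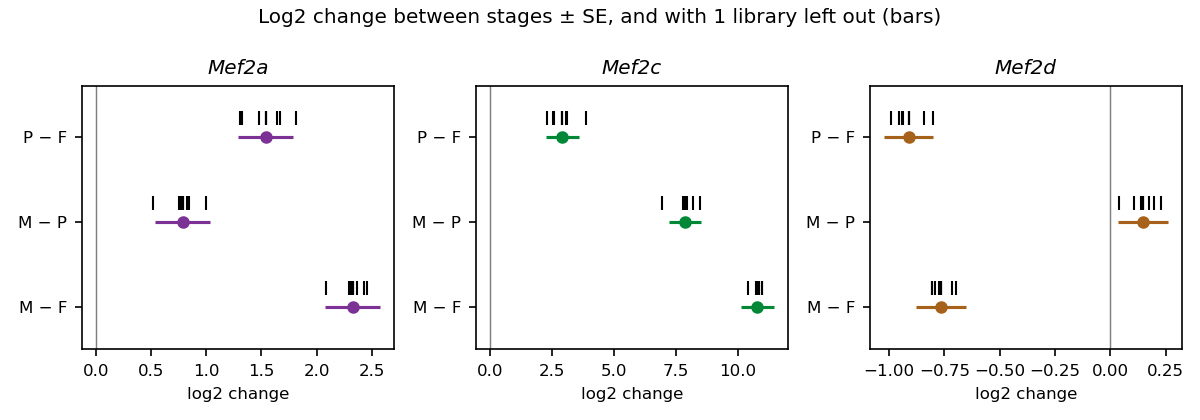
Log2 changes of the 3 genes for proliferating minus freshly isolated (P − F), myotubes minus proliferating (M − P) and myotubes minus freshly isolated cells (M − F), as the estimate ± SE (dot and bar, limma), with short bars for the estimate when each library was left out; the panels have different axes. The Mef2c change at the first step ranges from 2.30 to 3.86, and the Mef2a change at the second from 0.52 to 1.00.

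Proliferating replicate 1 was the lowest of the proliferating libraries in all 3 Mef2 genes. It was also the lowest in 22 of 25 muscle genes counted below as MEF2 targets and in 35.3% of all genes tested. Myog, the gene of myogenin, had 2179 in that library and 9530 and 8749 in the other proliferating libraries, so Myog and Mef2c were low in the same library. The part of that library's state in the Mef2 changes was not tested beyond leaving it out.

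Because the read count of a gene grows with its length, levels were compared between the 3 genes per kilobase of merged exons (14681 bases in Mef2a, 15715 in Mef2c and 5985 in Mef2d). In freshly isolated cells Mef2d stood highest with 846 ± 71.7 normalized counts per kb (SD, n = 3), Mef2a next with 194 ± 50.2 and Mef2c last with 1.06 ± 0.424, and the ranges of the 3 genes did not overlap. In proliferating cells Mef2a had 571 ± 182 and Mef2d 451 ± 59.2 per kb. These 2 overlapped, since in proliferating replicate 1 Mef2d lay just above Mef2a (386 and 378 per kb). Mef2c had 11.2 ± 8.48 there. In myotubes Mef2c led with 1889 ± 207 per kb, above Mef2a with 949.7 ± 49.9 and Mef2d with 497 ± 31.1, again without overlap.

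As shares of the summed level per kb, Mef2d held 81.2% ± 5.13 (SD, n = 3) in freshly isolated cells, Mef2a 54.5% ± 4.75 in proliferating cells and Mef2c 56.5% ± 2.6 in myotubes. The leading gene thus differed at each stage on the means. Mef2c held 0.102% ± 0.0397 in freshly isolated and 0.979% ± 0.633 in proliferating cells, and Mef2d was down to 14.9% ± 0.319 in myotubes. The summed level was 1041 ± 22.1 per kb in freshly isolated cells, 1033 ± 249 in proliferating cells and 3336 ± 226 in myotubes. Its course at the first step depends on the length assumed. With the longest transcript the sums were 1455 ± 53.3, 2041 ± 568 and 7798 ± 525, and with the coding length 5203 ± 213, 7481 ± 2106 and 31707 ± 2249. The length assumed changes the shares but not the leading gene of a stage on the means: with the longest transcript Mef2d held 64.6% in freshly isolated cells, Mef2a 73.5% in proliferating cells and Mef2c 60.5% in myotubes, and with the coding length 63.3%, 74.4% and 64.4%. The log2 difference between 2 genes within a library needs no length to be compared over stages. Mef2c minus Mef2a had means of -7.38, -6.00 and 1.09 in the 3 stages (exact permutation test of F over 1680 assignments, p = 0.0107, adjusted over 3 pairs p = 0.0107). Mef2d minus Mef2a had 0.86, -1.59 and -2.23 (exact permutation p = 0.00357, adjusted p = 0.00536), and Mef2c minus Mef2d -8.25, -4.41 and 3.31 (exact permutation p = 0.00357, adjusted p = 0.00536). The smallest p that this design can give is 0.00357.

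**Figure D3:**
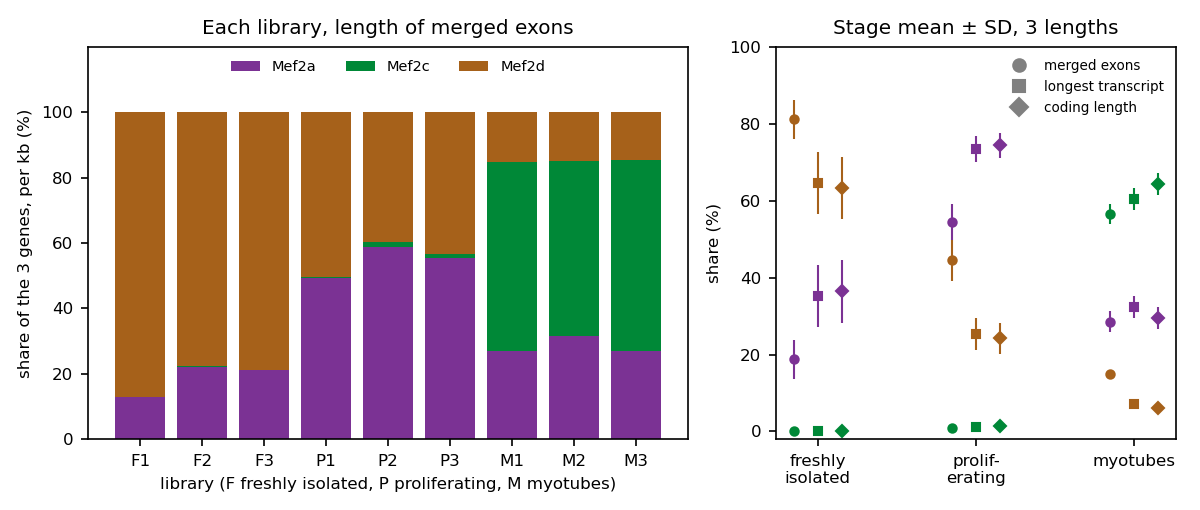
Share of each Mef2 gene in the summed level of the 3 per kb (percent), for each library with the length of merged exons (left) and as stage mean ± SD (n = 3) for merged exons, longest transcript and coding length (right). Mef2d leads in freshly isolated cells with 81.2%, Mef2a in proliferating cells with 54.5% and Mef2c in myotubes with 56.5%, for merged exons.

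The genes lie apart, on different chromosomes, and the annotation gives few genes that overlap them. On the strand of Mef2a itself Gm44667 and Gm44668 lie within it, and their reads were not analysed here. Lysmd4 overlaps Mef2a on the other strand and had 104 to 125 in freshly isolated, 70 to 86 in proliferating and 213 to 253 in myotube libraries, far below Mef2a. The antisense gene 1700113A16Rik overlaps the end of Mef2d and had 41 at most. No annotated gene overlaps Mef2c, and its nearest protein gene on each side is Cetn3, 1706.9 kb away, and Tmem161b, 555.2 kb away, which had 65 to 92, 233 to 237 and 423 to 444. The sources used here do not give whether strand was used in counting, so reads of overlapping genes cannot be assigned with certainty.

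Serum response factor is the other MADS-box factor of muscle. The values of its gene, Srf, were 3972, 2683 and 3008 in freshly isolated, 2268, 2716 and 2656 in the proliferating and 1656, 1616 and 1556 in myotube libraries. It did not pass the threshold at the first step (log2 change -0.32, adjusted p = 0.0553) and fell in myotubes against proliferating cells (log2 change -0.66 ± 0.14, adjusted p = 0.00239), where Mef2a and Mef2c rose.

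The other genes of the pathway are given by list, and every log2 change given for a gene named in them was called (limma, adjusted p below 0.05) unless its p says otherwise. Among 8 genes of MEF2 repressors, the class IIa histone deacetylases and their corepressors, 3 rose and 4 fell from freshly isolated to proliferating cells (median log2 change -0.11, against 0.07 over all genes tested). Of all genes 37.6% rose and 35.7% fell at that step, so the count of 3 of 8 that rose is near the background. The counts of lower genes were 2 under quantile scaling and with totals without the 10 most abundant genes. Hdac4 fell most, from 6157, 6170 and 5702 in the freshly isolated to 1017, 862 and 882 in the proliferating libraries (log2 change -2.71 ± 0.09, adjusted p = 4.61e-09), and Hdac7 rose from 142, 119 and 230 to 1086, 811 and 854 (log2 change 2.52 ± 0.23). Hdac3, the catalytic partner of the corepressors, rose (log2 change 1.53). In myotubes against proliferating cells 1 was higher and 6 lower (median -0.62, against 0.04 over all genes, of which 28.6% were higher and 25.5% lower). The one that rose was Hdac9, whose gene is known as a MEF2 target that feeds back on MEF2, from 4, 19 and 14 to 209, 224 and 209 (log2 change 4.23 ± 0.63, adjusted p = 0.000255, 3.63 without proliferating replicate 1 and 3.39 with a pseudocount of 10). Hdac7 (-1.39) and Cabin1, a calcium-sensitive MEF2 corepressor (-1.17), fell. Over both steps 3 were higher and 5 lower (40.2% and 37.3% of all genes), with Hdac4 at a log2 change of -3.21.

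The 23 genes of kinases and of the phosphatase calcineurin that act on MEF2 or its repressors went both ways, with 8 higher and 5 lower on entry into culture (median -0.06), 8 higher and 6 lower from proliferating cells to myotubes (median -0.09) and 10 higher and 5 lower over both (median 0.47, against 0.10 over all genes). Over all genes 37.6% were called higher and 35.7% lower at the first step, 28.6% and 25.5% at the second, and 40.2% and 37.3% over both, so for most of these counts the share in the list is near or below the background. Over both steps 8 were lower under quantile scaling. Sik1, a kinase that drives class IIa deacetylases out of the nucleus and is itself known as an immediate response gene, fell from 30529, 27318 and 27355 to 3352, 4968 and 5149 on entry into culture (log2 change -2.68 ± 0.15), and Prkd2, a protein kinase D gene, fell too (-2.54). Camk2g (1.73) rose at that step, as did Ppp3cb, a catalytic subunit of calcineurin, from 715, 896 and 860 to 2165, 2526 and 2295. In myotubes the kinase genes Camk2b and Camk2a rose. Camk2b had 3, 20 and 8 in proliferating libraries and 501, 405 and 632 in myotubes (log2 change 5.79 ± 0.53, with 5.20 without proliferating replicate 1, 6.40 without replicate 2 and 4.75 with a pseudocount of 10). Camk2a went from 36, 76 and 79 to 1381, 1234 and 1620 (log2 change 4.52 ± 0.59). The p38 gamma gene Mapk12 rose (1.90), and Map2k3, an activator of p38, fell (-1.81).

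Of 18 partner and coactivator genes 17 were tested, and all of these were called at the first step, 11 higher and 6 lower (median 0.90, against 0.07 over all genes, of which 73.3% were called, 37.6% higher and 35.7% lower). At the second step 3 were higher and 10 lower (median -0.33, against 0.04 over all genes, of which 28.6% were higher and 25.5% lower). Over both 7 were higher and 7 lower, against 40.2% and 37.3% of all genes. Myod1, the MEF2 partner of committed myoblasts, rose from 5532, 6876 and 4938 to 20690, 21446 and 21302 on entry into culture (log2 change 1.88 ± 0.11) and fell to 6955, 7315 and 6858 in myotubes (-1.59 ± 0.11). Myog rose from 1257, 62 and 218 to 2179, 9530 and 8749 (log2 change 4.45 ± 0.91), with 5.59 without freshly isolated replicate 1, 3.43 without freshly isolated replicate 2 and 5.14 without proliferating replicate 1. It reached 37811, 33789 and 39734 in myotubes. That second rise (log2 change 2.71 ± 0.91, adjusted p = 0.0285) was lost without proliferating replicate 1 (2.02, adjusted p = 0.113), without myotube replicate 1 (0.0693), 2 (0.0639) or 3 (0.0751) and under quantile scaling (0.0546) or without the mean-variance trend (0.0592), all in limma. Myf6, the myogenic factor of mature fibres, rose from 25, 36 and 34 to 1204, 1095 and 1422 at that step (log2 change 5.26 ± 0.84). The histone acetyltransferase gene Kat2b fell at the first step (-2.77) and Ash2l, of a histone methyltransferase complex that p38 directs to MEF2, rose (2.01). Carm1, an arginine methyltransferase that coactivates MEF2C, fell in myotubes (-1.63). The acetyltransferase genes Ep300 and Crebbp were lower in myotubes than in freshly isolated cells by log2 changes of -2.02 and -1.87.

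Among 7 regulators of splicing that act on or accompany the muscle forms of Mef2 transcripts, 3 were higher and 1 lower at the first step (median 0.49; over all genes 37.6% were higher and 35.7% lower), and 5 and 1 without freshly isolated replicate 1 and proliferating replicate 1. At the second step 3 were higher and 0 lower (median 0.25; over all genes 28.6% and 25.5%), though 2 were lower under quantile scaling, with totals without the 10 most abundant genes, and without the same 2 libraries. Celf1 (1.20) and Celf2 (0.49) rose and Mbnl2 (-0.72) fell on entry into culture. Rbfox1, which promotes the muscle exon of Mef2d, rose from 67, 40 and 44 to 810, 762 and 1039 in myotubes (log2 change 4.11 ± 0.91, adjusted p = 0.0034). Srpk3, a muscle kinase of splicing factors and itself a known MEF2 target (counted in both lists), rose from 93, 278 and 241 to 2407, 2150 and 2736 (3.71 ± 0.35), and Rbfox2 rose by 0.87. Splicing itself was not measured in the gene counts.

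Nearly all muscle genes known as MEF2 targets were higher in myotubes. This was also so for muscle genes listed as markers. Against proliferating cells all 10 adult myofibre markers (median 6.73) and all 5 differentiation markers (median 4.27) were higher. Ckm and Mb stand both among the myofibre markers and among the targets. Of the 25 targets, 13 were higher and 2 lower on entry into culture (median log2 change 1.59, against 0.07 over all genes). In myotubes against proliferating cells 24 were higher and 0 lower (median 4.54, against 0.04 over all genes). Of all genes 37.6% were higher and 35.7% lower at the first step and 28.6% higher and 25.5% lower at the second. The gene not called at the second step was Xirp1 (-0.26, adjusted p = 0.437). Over both steps 24 were higher (median 6.64, with 40.2% of all genes higher), all but Myl2. Without freshly isolated replicate 1 and proliferating replicate 1 the counts were 16 and 3 at the first step and 24 and 1 at the second. The 2 lower at the first step were Pygm, of glycogen breakdown (log2 change -3.09), and the intermediate filament gene Des (-0.54, adjusted p = 0.0149), the latter not called without proliferating replicate 1 (-0.40, adjusted p = 0.0615) and at 0.00 under quantile scaling. Smyd1, a methyltransferase of sarcomere assembly, rose from 37, 7 and 19 to 1429, 2755 and 2633 on entry into culture (log2 change 6.90 ± 0.46, 6.31 when freshly isolated replicate 2 was left out and 6.26 with a pseudocount of 10). Eno3, the muscle enolase, rose from 155, 285 and 304 to 9071, 10203 and 10469 (5.37 ± 0.23). The thin filament genes Nrap and Lmod3 were at 0 to 25 in freshly isolated cells and at 206 to 1257 in proliferating cells (log2 changes 6.68 and 6.64). Without freshly isolated replicate 1 these were 5.22 and 5.44, without replicate 3 they were 7.57 and 7.44, and Lmod3 had 7.30 without proliferating replicate 1. With a pseudocount of 10 they were 5.25 and 5.01. At the second step Ckmt2, the mitochondrial creatine kinase, had 2, 1 and 2 in proliferating libraries and 1879, 1076 and 2331 in myotubes. The myoglobin gene Mb went from 58, 192 and 186 to 20655, 14739 and 22414 (log2 change 7.20 ± 0.77). Tnnc1, slow troponin C, went from 402, 1686 and 1363 to 98963, 71351 and 102937 (6.53 ± 0.56, and 5.89 without proliferating replicate 1). Myom2, of the M-band, rose by 6.52 ± 0.52, and by 5.81 without that library.

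In proliferating cells Mef2c was further below its myotube level than most of these genes. Its mean there stood at 0.591% of the myotube mean, and the single libraries at 0.111% to 1.0%. Of the 25 muscle genes 23 stood at a higher percentage and 2, Ckmt2 (0.0946%) and Myl2 (0.345%), at a lower one. Their median was 5.42% and the highest was Xirp1, an actin-binding gene of growing muscle, with 122%. Mef2a stood at 60.1% and Mef2d at 90.7% of their myotube means, Myog at 18.4% and Myh3 at 4.34%. These percentages describe stage means, with no test of their order.

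**Figure D4:**
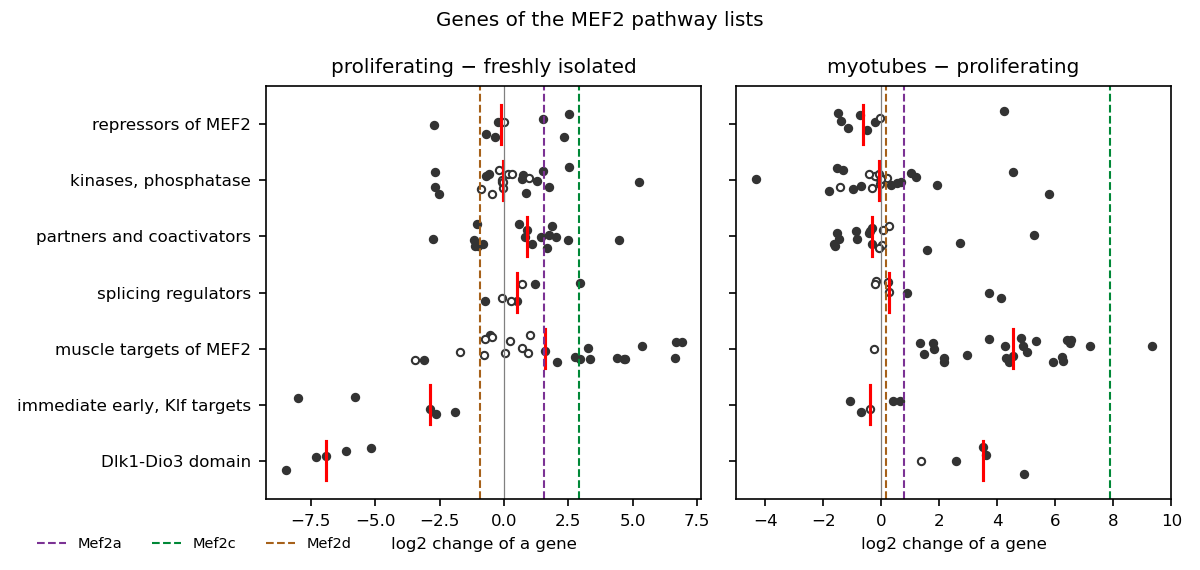
Log2 changes of the genes of each list for proliferating minus freshly isolated cells (left) and myotubes minus proliferating cells (right), filled where called at an adjusted p below 0.05 (limma) and open where not; red bars are list medians and dashed lines the values of the 3 Mef2 genes. At the second step the muscle targets lie at a median of 4.54 and Mef2c at 7.88, beyond all but Ckmt2.

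Genes known as MEF2 targets in other settings fell on entry into culture. The immediate early and Krüppel-like factor genes Jun, Nr4a1, Klf2, Klf4 and Klf6 all fell, 5 of 5, from freshly isolated to proliferating cells. Their median was -2.86, and 35.7% of all genes fell. All 5 were lower in myotubes than in freshly isolated cells (median -3.74), as were 37.3% of all genes. Nr4a1 had 19141, 13082 and 13904 in freshly isolated libraries and 64, 46 and 67 in proliferating ones (log2 change -8.00 ± 0.18). Klf4 fell from 9628, 13764 and 11488 to 195, 195 and 239 (-5.78 ± 0.14), Jun by 2.86 and Klf6 by 2.65 on the log2 scale. Of the 3 Mef2 genes Mef2d was the one highest in freshly isolated cells, and a link between it and these genes was not tested. At the second step 2 of the 5 were higher, 2 lower (Klf6 -1.09, Jun -0.72) and 1 not called. Of all genes 28.6% were higher and 25.5% lower there. The 2 higher, Nr4a1 (0.64) and Klf4 (0.41), were not called under quantile scaling or with totals without the 10 most abundant genes. Klf4 lost its call, in limma, also when proliferating replicate 1 (0.36, adjusted p = 0.0911) or 2 (0.36, 0.0936) was left out, and so without myotube replicate 1 (0.37, 0.0966), 2 (0.42, 0.066) or 3 (0.45, 0.051).

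The Dlk1-Dio3 domain is an imprinted cluster that MEF2A is known to activate in muscle. Of its 6 listed genes 5 were tested, and all 5 fell on entry into culture (median -6.90; 35.7% of all genes fell) while Mef2a rose. Meg3, a non-coding RNA gene, had 29584, 27850 and 23912 in freshly isolated and 57, 83 and 88 in proliferating libraries (log2 change -8.48 ± 0.19), and Rian, its neighbour, fell by 7.32 on the log2 scale. In myotubes 4 of the 5 were higher than in proliferating cells (median 3.49; 28.6% of all genes were higher), with Meg3 at 803, 1066 and 721 (3.49 ± 0.19), Rian up by 4.91, Mirg by 3.61 and Rtl1 by 2.57, while Mef2a rose by 0.79. All 5 were still lower in myotubes than in freshly isolated cells (median -3.57, with 37.3% of all genes lower), while Mef2a was 5.01-fold higher. A link between Mef2a and the genes of this domain was not tested, and MEF2A protein or its activity was not measured.

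Likeness between genes was described by Pearson's r of log2 values over the 9 libraries, which fall into 3 groups by stage, so r mainly compares the pattern of the stages and not the size of the change. Of 9990 genes compared, those most like Mef2a were Tmem182 (r = 0.9913), Stam (0.9913), Eya4 (0.9906), Dysf (0.99) and Snx6 (0.9888). Eya4, a transcriptional coactivator gene, had 963 to 1380 in freshly isolated, 2262 to 3048 in proliferating and 4509 to 4944 in myotube libraries, with log2 changes of 1.19 and 0.79 at the 2 steps, close to the 1.54 and 0.79 of Mef2a. Dysf, of membrane repair, and Tmem182 were at 0 to 8 in freshly isolated cells and so rose far more.

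Those most like Mef2c were Ablim3 (0.9987), Dnal1 (0.9981), Smpx (0.998), Actn2 (0.9979) and Maged1 (0.997), and 54 genes were above an r of 0.99, against 3 for Mef2a and 0 for Mef2d. Smpx, a small protein of striated muscle, had 4, 2 and 9 in freshly isolated, 10, 61 and 53 in proliferating and 8362, 5973 and 9266 in myotube libraries, with a log2 change of 7.86 at the second step beside 7.88 for Mef2c. Actn2, the alpha-actinin of the Z-disc, had 118, 46 and 69 in freshly isolated, 153, 568 and 467 in proliferating and 19163, 18182 and 21358 in myotube libraries. Most like Mef2d were Pdlim4 (0.9874), Flnc (0.9867), Csf2ra (0.9845), Notch1 (0.9836) and Spty2d1 (0.9828). Flnc, muscle filamin, had 141244 to 165110 in freshly isolated, 9743 to 18215 in proliferating and 15388 to 18573 in myotube libraries, and the receptor gene Notch1 had 8053 to 10001, 1269 to 2127 and 1796 to 1973. Both lost far more than Mef2d, with log2 changes of -3.44 and -2.37 at the first step. The ranking depends on the libraries used: without freshly isolated replicate 1 and proliferating replicate 1, 0 of the 5 named for Mef2a, 1 for Mef2c (Actn2) and 1 for Mef2d (Flnc) were again among the top 5.

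**Figure D5:**
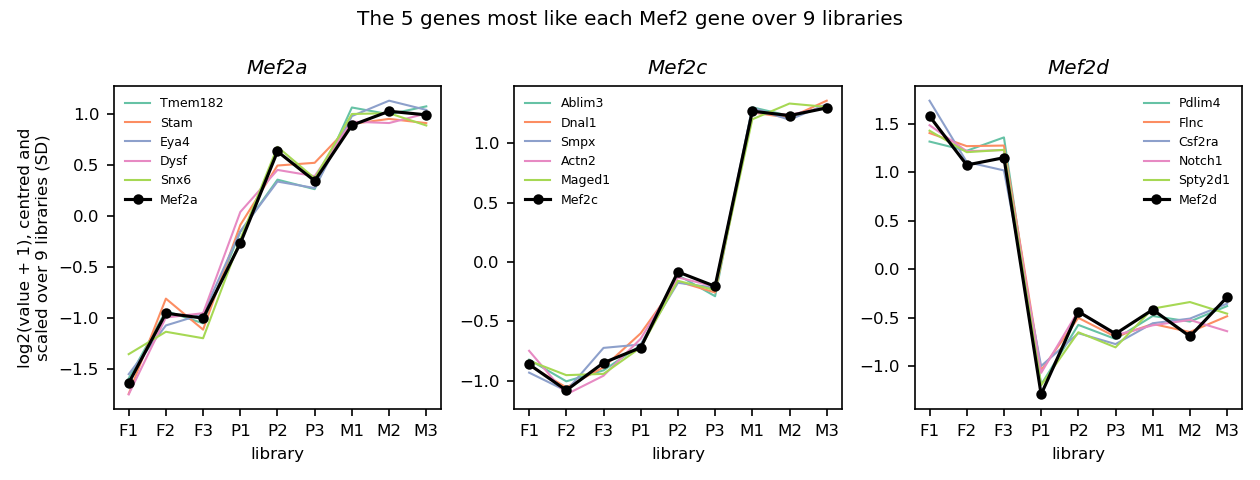
Log2(value + 1), centred and scaled over the 9 libraries (in SD), for each Mef2 gene (black) and the 5 genes most like it by Pearson's r; F, P and M mark freshly isolated, proliferating and myotube libraries 1 to 3. The lines run close together in each panel, and r of each gene with its Mef2 gene lies between 0.9828 and 0.9987.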

How the data were processed

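Per the submitters' processing notes, STAR 2.4.0a, featureCounts 1.4.5-p1 of Subread and the build mm10 were used. Per the labels' protocols, 100 ng of total RNA was depleted of ribosomal RNA with RiboGone before SMARTer Stranded library preparation. The deposited score values are gene counts that the authors scaled between libraries and rounded; the sources used here do not give the tool. Columns whose prefix matches no stage by name were assigned to freshly isolated cells by elimination.

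A gene was kept if 3 or more libraries reached 10. Values on the log2(value + 1) scale were fitted for all 3 stages in 1 limma model (mean-variance trend, Benjamini-Hochberg adjustment, two-sided). Folds are antilogs of these log2 changes, not ratios of means. The members and gene lists were chosen with earlier results of these data known. All list members were counted, and at most 4 per list and comparison were named, those called with the largest change whose higher stage mean reached 100, besides Srf, Myod1 and Myog. The values of 1 gene that this rule names are not reported here. Genes like a member were the 5 of highest Pearson r with a mean of at least 100. Positions and lengths come from GENCODE vM21, to which 45143 genes matched, and promoters from RefSeq. The fit was tested on simulated data. Alternatives were other pseudocounts, filters, scalings, samples, spreads, a replicate block and leaving libraries out. R 4.3.3, limma 3.58.1, Python 3.11.15, pandas 2.3.3, numpy 2.4.6 and matplotlib 3.10.9 were used.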

Additional observations from a re-analysis of the deposited data

How the results depend on the processing

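Under 20 other settings each, Mef2a and Mef2c stayed called higher and Mef2d called lower at the first step and over both steps. At the second step Mef2c stayed called, and Mef2a lost its call in 5: quantile scaling (log2 change 0.53), totals without the 10 most abundant genes (0.54), and without 1 of 3 libraries, with a range of 0.52 to 1.00 over all libraries left out. Mef2d reversed, uncalled, to -0.10 with totals without the 10 most abundant genes. The cause was not tested. With the longest transcript as length, the shares of Mef2a, Mef2c and Mef2d were 35.2%, 0.183% and 64.6% in freshly isolated cells, and 32.4%, 60.5% and 7.07% in myotubes, with Mef2a at 73.5% and Mef2d at 25.3% in proliferating cells. With the coding length they were 36.4%, 0.222% and 63.3% in freshly isolated cells, with Mef2a at 74.4% and Mef2d at 24.2% in proliferating cells, and Mef2c at 64.4% and Mef2d at 6.09% in myotubes. No pairing of libraries by replicate number was seen (correlations of same-numbered deviations from -0.0338 to 0.027, and not every library correlated best with its own number). With 3 libraries a stage this cannot exclude a pairing. A replicate block changed no call of the 3 genes, with adjusted p = 0.00255 for Mef2a and 0.352 for Mef2d at the second step (limma), and gave 6446 genes higher and 6117 lower at the first step against 6507 and 6172. Depth limits Mef2c in freshly isolated cells, at an estimated 9 to 20 reads per library.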
